A study of Mus musculus with 16 samples.

Results

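The autophagy genes described here are a named list of 36 genes of the autophagy machinery, matched by symbol to a table of 13832 mouse genes, and all 36 were in the table. They were followed in RAW264.7, an established macrophage-like mouse cell line, of which 1 lysate per time point came from cells left untreated (0 min) or given LPS (lipopolysaccharide, the outer membrane glycolipid of Gram-negative bacteria) at 100 ng/ml for 15, 30, 45, 60, 75 or 90 min or 16 h. At each time point, input RNA (fragmented cytoplasmic RNA) and ribosome footprints (the RNA pieces that ribosomes protect from RNase I) were sequenced from one lysate prepared with cycloheximide, which gave 16 libraries and 1 library per material and time point. Untreated cells were sampled at 0 min only. The effects of LPS and of time in culture therefore cannot be told apart at any later time point. No single library has a replicate. Of the 36 members, 35 had at least 10 counts in at least 4 of 8 input and 4 of 8 footprint libraries and were tested. Optn, a receptor for ubiquitin-tagged cargo, did not pass: its counts summed to 1 over the 8 input libraries and to 4 over the 8 footprint libraries.

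Autophagy encloses cytoplasm, organelles or microbes in a double membrane, the autophagosome, which then fuses with the lysosome. The ULK1 kinase complex starts the process, a class III PI3-kinase complex marks the site with the lipid PI3P, and ATG9, ATG2 and the WIPI proteins supply and recognise membrane. A chain of conjugation enzymes, led by ATG7, attaches the small ubiquitin-like ATG8 proteins (LC3 and GABARAP) to the membrane, cargo receptors such as p62 bind both cargo and ATG8 proteins, and late tethers join the autophagosome to the lysosome. In macrophages the same machinery also handles ingested microbes.

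The libraries matched their labels as macrophage RNA: 8 of 9 macrophage marker symbols were in the table (the one missing, Emr1, is an older name of Adgre1, which was in it), and their summed normalised count was 18280 to 30830 in input and 28910 to 44430 in footprints. Singly the macrophage markers differed, and Itgam had only 17 to 71 deposited input counts. From 0 min to 16 h, deposited input counts of Csf1r went from 4008 to 1740 and those of Lyz2 from 7348 to 4789. Those of Cd14 went from 3282 to 15967, and Adgre1, Fcgr1, Ptprc, Cd68 and Itgam were also higher at 16 h. The marker lists of fibroblasts, epithelium and lymphocytes each summed to at most 6.35 in any library, although 7 of those 12 markers were not in the table, and the osteoclast markers summed to at most 38.3. The LPS check genes Tnf, Nfkbia and Il1b summed to 553 in untreated input and reached 15870 after LPS. Deposited counts totalled between 6702930 and 6702932 in every library, so the totals carry no information on the original depth. Normalised counts below are deposited counts divided by a scaling factor per library (TMM), so they compare one gene between libraries. All values are relative to the other RNA of the same library, so less RNA from other genes and more RNA from a named gene cannot be told apart.

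Of the 36 members, 29 had an entry in the RefSeq promoter table (build GRCm38.p6, windows that run from upstream to just past the start site). The promoters of Sqstm1, Atg13 and Vmp1 are printed, 5′ to 3′ on the gene's strand, because Sqstm1 and Atg13 had the largest called changes within 90 min in both materials and Vmp1 was the member whose ribosome density changed. Capitals mark a match to TGACNNNGC, the core of the antioxidant response element, read on either strand. Vmp1 had 3 windows in the table, each with 1 such match, and the one at the annotated start of the gene is shown.
Sqstm1, chr11:50210771-50211070, minus strand: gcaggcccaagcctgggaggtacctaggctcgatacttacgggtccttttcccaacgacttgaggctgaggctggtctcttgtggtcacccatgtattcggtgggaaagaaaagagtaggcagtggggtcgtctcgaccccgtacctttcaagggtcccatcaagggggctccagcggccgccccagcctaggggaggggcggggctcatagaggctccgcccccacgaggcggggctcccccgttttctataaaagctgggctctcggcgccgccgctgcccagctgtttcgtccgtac
Atg13, chr2:91710543-91710842, minus strand: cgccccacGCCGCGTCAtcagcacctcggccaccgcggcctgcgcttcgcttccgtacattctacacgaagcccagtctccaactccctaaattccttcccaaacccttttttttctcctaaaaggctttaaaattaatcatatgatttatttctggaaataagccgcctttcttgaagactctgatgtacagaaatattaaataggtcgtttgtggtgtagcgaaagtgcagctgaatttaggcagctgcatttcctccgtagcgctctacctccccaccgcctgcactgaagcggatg
Vmp1, chr11:86683787-86684086, minus strand: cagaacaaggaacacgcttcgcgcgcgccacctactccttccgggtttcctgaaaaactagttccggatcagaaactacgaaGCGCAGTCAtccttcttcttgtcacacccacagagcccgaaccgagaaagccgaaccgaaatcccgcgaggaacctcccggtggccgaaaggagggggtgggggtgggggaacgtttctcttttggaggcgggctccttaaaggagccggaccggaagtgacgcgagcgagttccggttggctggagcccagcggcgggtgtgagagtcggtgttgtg

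Letters of 4 known motifs were searched on both strands of these windows. A match describes the letters and does not show binding. TGACNNNGC was found in 5 of 29 members (17.2%; Atg13, Map1lc3b, Tax1bp1, Ulk2 and Vmp1), against 17.3% of 7361 tested genes with a promoter and 12.4% of all 32851 promoters. The E-box CACGTG was found in 4 (13.8%; Atg3, Atg5, Atg7 and Atg14), against 12.7% of tested genes and 7.15% of all promoters. Its longer form TCACGTGA, the core bound by the lysosomal regulator TFEB, overlaps CACGTG and was found in Atg3 alone (3.45%), against 2.46% of tested genes and 0.974% of all promoters. GGANTTTCC, an NF-kB type motif, was in none of the 29, against 1.6% of tested genes and 1.25% of all promoters. The Sqstm1 window held no match to any of the 4.

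After 16 h of LPS, the autophagy genes stood higher as a list, and the members that rose outnumbered those that fell. The members were chosen with earlier results of these data known, so the shares below describe the list and do not test it. In input, 18 of 35 tested members rose and 3 fell, against 28.3% of all 9529 tested genes that rose and 27% that fell. The median change of the members was 0.42 on the log2 scale, against 0.01 for all tested genes. In footprints 15 members rose and 3 fell, against 26% and 24.6% of all tested genes, with a median of 0.30 against 0.00. The 5 class III PI3-kinase genes were split, with medians of -0.37 in input and -0.36 in footprints. In each material 2 of them, Pik3c3 and Uvrag, were called as falls, and 2 lay above 0. Both medians are the values of Atg14, which was not called. A call here means a Benjamini-Hochberg adjusted p at or below 0.05 over all tested genes in edgeR's quasi-likelihood test, whose error is how far single libraries lie from a smooth time curve, and the lone 16 h library is assumed to vary like the others. Under scaling by total counts the 16 h calls in input were 15 up and 4 down, those in footprints 13 up and 3 down, and that scaling shifts the median of all genes by -0.16 and -0.10.

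Within the first 90 min, fewer members moved. In input, 7 rose and 2 fell, against 15.2% and 11.9% of all tested genes, and the members' median largest change was -0.07 against -0.04. In footprints, 4 rose and 2 fell, against 12.7% and 9.13%, with medians of -0.17 and -0.07. These shares lie near those of all genes. The split between up and down depended on scaling: with total counts, the input calls were 5 up and 7 down, the footprint calls 3 up and 14 down, and that scaling shifts the median of all genes by -0.13 in input and -0.25 in footprints. The plot of changes by role shows both periods side by side. The size over 0 to 90 min is the largest departure of the fitted quadratic curve from its value at 0 min. The size at 16 h is also taken from the fitted value at 0 min, so neither size need equal the fold between measured counts.

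**Figure D1:**
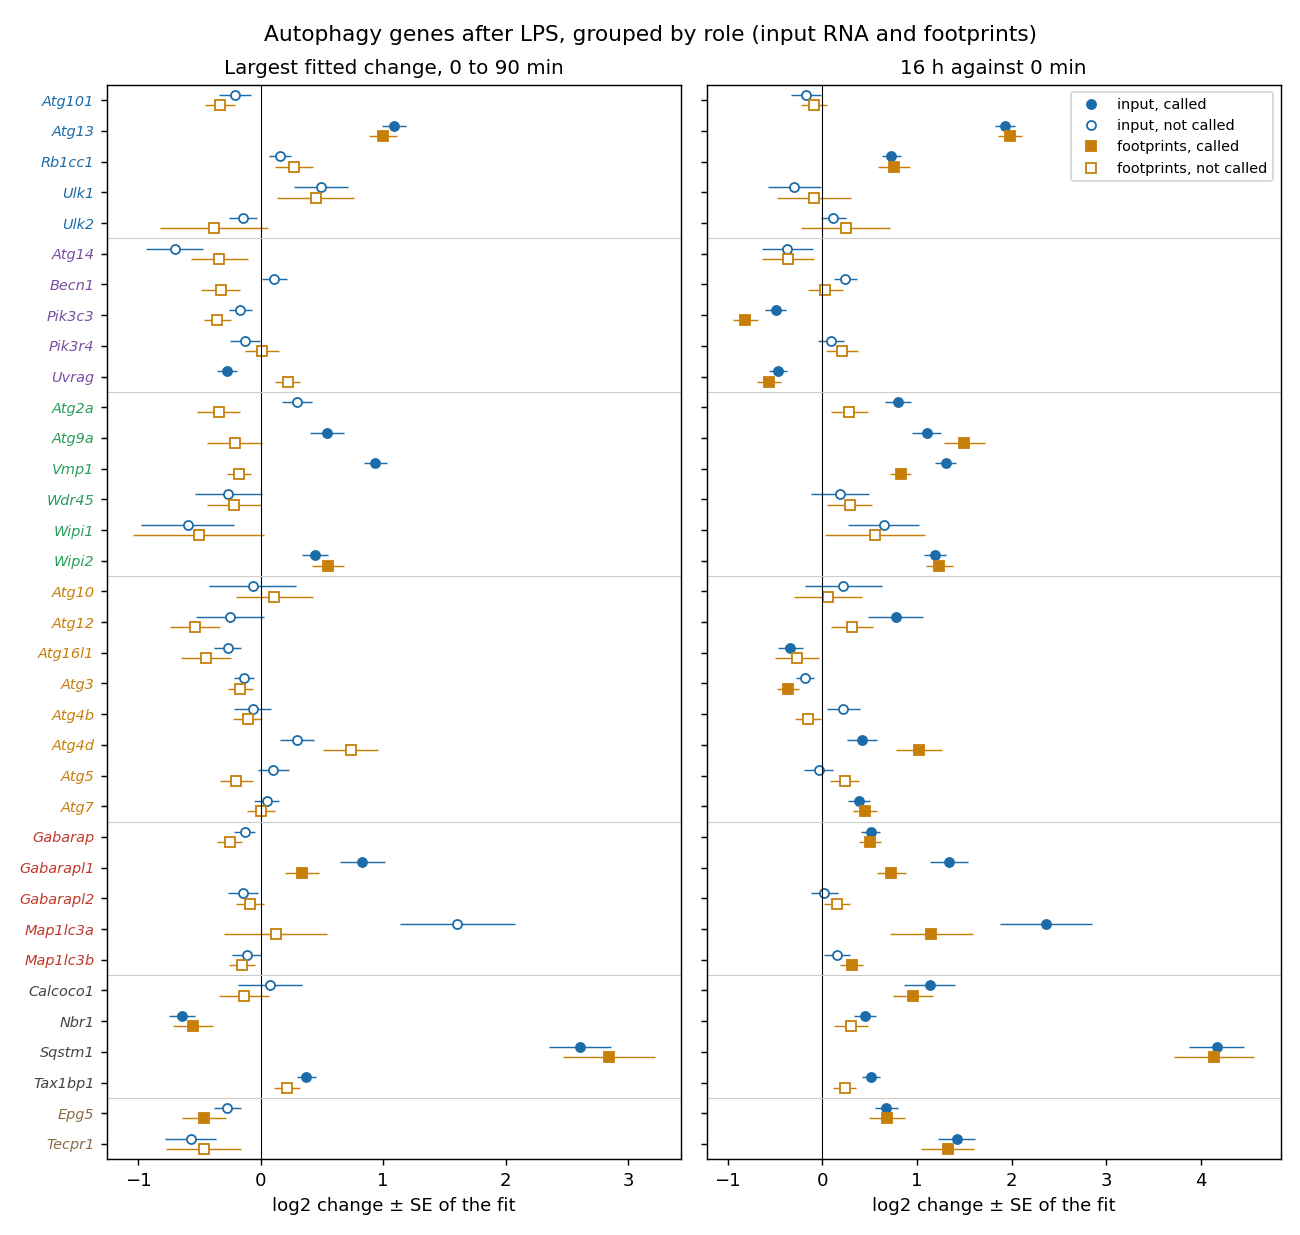
Fitted log2 change (x axis, ± SE of the fit) of the 35 tested members (rows, coloured and separated by role), over 0 to 90 min on the left and at 16 h on the right, in input (circles) and footprints (squares), with filled symbols for called changes. Sqstm1 lies farthest to the right in each panel, and Pik3c3 and Uvrag lie left of 0 in both materials at 16 h.

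The ULK1 complex, the kinase that starts autophagosome formation, was carried by Atg13, its regulatory scaffold. Atg13 input stood at 219, 240, 263, 285, 342, 382 and 490 normalised counts from 0 to 90 min in 15 min steps and at 800 at 16 h. Its footprints stood at 305, 320, 312, 329, 397, 528 and 597 and then at 1222. The input value was higher at each successive time point, and the footprints lay between 305 and 329 up to 45 min and higher from 60 min on. Atg13 rose within 90 min by 1.09 ± 0.10 in input (log2 ± SE, edgeR quasi-likelihood test, adjusted p = 7.4e-06) and by 1.00 ± 0.12 in footprints (adjusted p = 1.6e-05; 0.053 with the square root of time). At 16 h it was 3.66-fold the untreated value in input (95% counting interval 3.17 to 4.23) and 4.00-fold in footprints (3.53 to 4.55), with edgeR adjusted p-values of 3.4e-09 and 2.2e-09. Such counting intervals cover counting error only. Rb1cc1, the large scaffold FIP200, rose at 16 h by 0.73 ± 0.10 in input and 0.76 ± 0.17 in footprints, from 593 to 909 and from 203 to 351. The 2 kinases and Atg101, the partner of Atg13, were called in neither period. Ulk1 input ranged from 37.0 at 16 h to 73.8 at 45 min and Ulk2 input from 230 to 268.

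Of the 5 class III PI3-kinase genes, which make PI3P, 2 fell at 16 h in each material and none rose. Among all tested genes, 27% fell and 28.3% rose in input, and 24.6% fell and 26% rose in footprints. Pik3c3, the catalytic subunit, had 431, 465, 436, 447, 428, 415 and 401 normalised input counts up to 90 min and 295 at 16 h. Its footprints were 596, 629, 584, 601, 581, 480 and 493 and then 343. The 16 h library was the lowest in each material. Within 90 min the footprint change of Pik3c3 was not called (-0.35 ± 0.11, edgeR adjusted p = 0.052). It was called with scaling by total counts (-0.61, adjusted p = 0.0017) and without 30 min or 16 h (-0.37 and -0.35). Input was called within 90 min with scaling by total counts only (-0.30, adjusted p = 0.041). At 16 h Pik3c3 fell by 0.49 ± 0.11 in input (edgeR adjusted p = 0.0018) and by 0.81 ± 0.13 in footprints (adjusted p = 9.6e-05). Uvrag, a subunit of the complex acting on late structures, had 874, 855, 856, 905, 844, 799 and 699 in input up to 90 min and 581 at 16 h, and 484, 521, 557, 558, 575, 508 and 489 and then 325 in footprints. Uvrag fell at 16 h by 0.47 ± 0.10 in input (edgeR adjusted p = 0.00085) and by 0.57 ± 0.13 in footprints (adjusted p = 0.0014). Its early fall in input of 0.28 ± 0.08 (adjusted p = 0.015) rested on 1 library, with a change of -0.11 (adjusted p = 0.45) without 90 min. Becn1, Pik3r4 and Atg14, the core scaffold, the regulatory subunit and the autophagy-specific subunit, were called in neither material at either time. Without 0 min, the 16 h change of Becn1 was called, with 0.36 in input (adjusted p = 0.019) and with footprints at 0.44 (adjusted p = 0.041), and a linear time term also gave a call in input (0.29, adjusted p = 0.045). Atg14 came close, with an input change of -0.70 ± 0.23 within 90 min (adjusted p = 0.051) that passed with scaling by total counts (-0.84, adjusted p = 0.024) and without 16 h (-0.71, adjusted p = 0.048).

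Among the genes of membrane supply and PI3P recognition, 3 of 6 rose in input within 90 min, against 15.2% of all tested genes, and 4 of 6 at 16 h, against 28.3%. Vmp1, a membrane protein of the endoplasmic reticulum needed to release forming autophagosomes, had 571, 608, 742, 906, 908, 1086 and 1017 normalised input counts up to 90 min and 1269 at 16 h. Its input rose by 0.94 ± 0.095 within 90 min (edgeR adjusted p = 2.9e-05) and by 1.30 ± 0.11 at 16 h (adjusted p = 2e-07). Wipi2, which reads PI3P and recruits the ATG16L1 complex, had 421, 435, 390, 428, 476, 565 and 545 in input and 903 at 16 h, with 290, 289, 253, 258, 314, 386 and 409 and then 689 in footprints. Both materials dipped below the untreated value at 30 min and were above it from 60 min on. Within 90 min Wipi2 input rose by 0.44 ± 0.10 (adjusted p = 0.011) and its footprints by 0.55 ± 0.13 (adjusted p = 0.0029). At 16 h they rose by 1.19 ± 0.12 and 1.24 ± 0.14. Scaling by total counts ended the early call in input (0.31, adjusted p = 0.051), and the footprint value was 0.33 (adjusted p = 0.020) without 90 min.

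Atg9a, the lipid scramblase of the vesicles that seed autophagosomes, had an early call in input but not in footprints. Its input was 123, 125, 140, 156, 150, 160 and 187 up to 90 min and 249 at 16 h, whereas its footprints were 64.8, 70.2, 57.8, 68.2, 67.8, 64.1 and 52.4 and then 181. The footprints were lowest at 90 min, when input was at its early maximum. Input rose by 0.54 ± 0.14 within 90 min (edgeR adjusted p = 0.027), a call lost without 0, 15 or 90 min (0.38 to 0.51, adjusted p = 0.082 to 0.18) and in DESeq2 (0.54, adjusted p = 0.22). At 16 h Atg9a rose in input by 1.10 ± 0.15 (adjusted p = 3e-05) and in footprints by 1.50 ± 0.22 (adjusted p = 2.7e-05). The ratio of footprints to input went from 0.527 at 0 min to 0.280 at 90 min and 0.725 at 16 h, but neither change in ratio was called (adjusted p = 0.45 and 0.57). Atg2a, the lipid transfer protein, rose at 16 h in input only by call (0.80 ± 0.13, against 0.28 ± 0.19 in footprints, adjusted p = 0.24), and the difference between materials was not called (-0.44, adjusted p = 0.54). Wipi1 (9.66 to 27.5 normalised input counts) and Wdr45 (32.9 to 55.0), 2 further PI3P readers, were called in neither period.

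**Figure D2:**
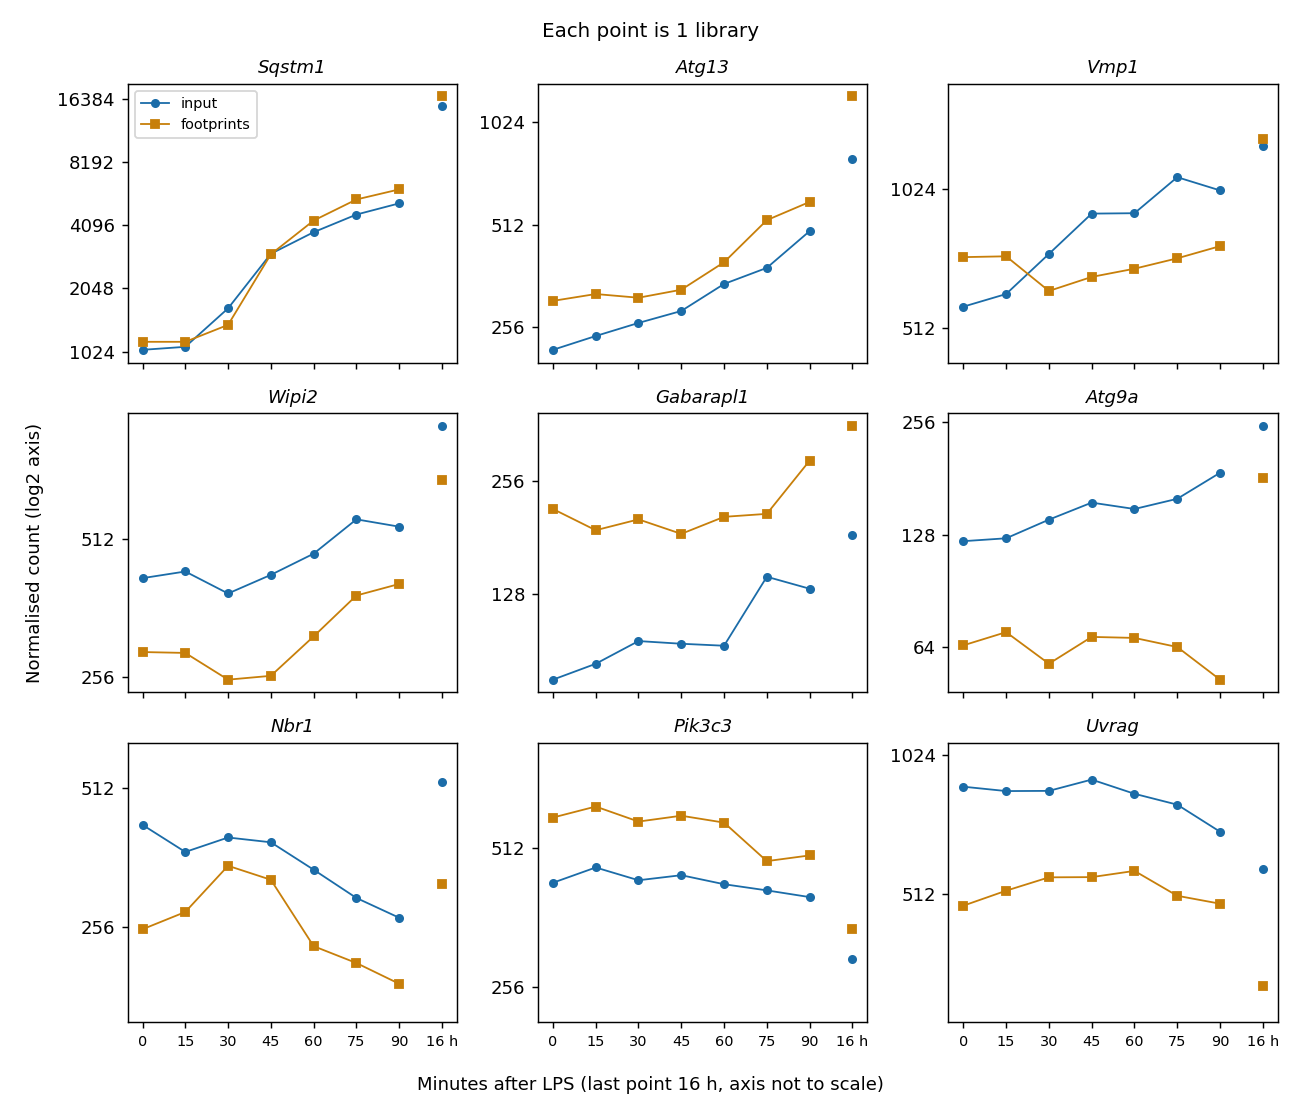
Normalised counts (y axis, log2 scale that differs between panels) of 9 members in input (circles) and footprints (squares) at each time point (x axis, not to scale after 90 min), each point being 1 library. Sqstm1 and Atg13 are higher at 16 h than at any earlier time in both materials, Vmp1 input climbs while its footprints stay between 617 and 771 up to 90 min, and Pik3c3 and Uvrag are lowest at 16 h.

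With TMM scaling and all libraries, the conjugation enzymes had calls at 16 h only. None of 8 was called in either material within 90 min, against 15.2% up and 11.9% down in input and 12.7% and 9.13% in footprints for all tested genes. With scaling by total counts, early footprints of Atg3, Atg5, Atg12 and Atg16l1 were called down (-0.33 to -0.70, edgeR adjusted p = 0.025 to 0.037). Early Atg16l1 input was too (-0.40, adjusted p = 0.037). That scaling called 2818 of all 9529 tested genes down in footprints and 1991 in input. Early Atg12 footprints were also called without 30 min (-0.64). At 16 h, 3 rose in input, against 28.3% of all tested genes, and 1 fell, against 27%. The 3 were Atg12, the ubiquitin-like protein joined to ATG5 (0.77 ± 0.29), Atg4d, a protease that acts on ATG8 proteins (0.42 ± 0.16), and Atg7, the activating enzyme (0.39 ± 0.12). The edgeR adjusted p-values of these 3 were 0.034, 0.039 and 0.011, and none of the calls was kept in DESeq2 (0.15, 0.16 and 0.077) or with scaling by total counts (0.61, 0.26 and 0.23 with adjusted p-values of 0.087, 0.19 and 0.11). Without 0 min the Atg12 change was 0.52 (adjusted p = 0.11), and without 15, 60, 75 or 90 min that of Atg4d was 0.34 to 0.42 (adjusted p = 0.052 to 0.090). The measured Atg4d input at 16 h was 1.18-fold the untreated value, with a counting interval of 0.981 to 1.42. Atg16l1, which places the conjugation machinery on the membrane, fell in input by 0.34 ± 0.13 (adjusted p = 0.043), a call lost when 15, 45, 60 or 75 min was left out (-0.30 to -0.34, adjusted p = 0.056 to 0.088). The call was also lost in DESeq2 (-0.34, adjusted p = 0.19), with square-root time (-0.35, adjusted p = 0.0504) and with a cubic curve (-0.30, adjusted p = 0.072). In footprints Atg4d rose by 1.02 ± 0.24 (adjusted p = 0.0024), from 44.2 to 94.1 normalised counts. The other libraries of Atg4d footprints lay between 63.1 and 79.0, so the untreated library was the lowest of the 8, and without it the rise was 0.62 (adjusted p = 0.046). Atg7 footprints rose by 0.45 ± 0.13 (adjusted p = 0.0071), from 446 to 589. Atg3, the enzyme that transfers ATG8 proteins to lipid, fell by 0.36 ± 0.12 in footprints (adjusted p = 0.018; 0.056 without 0 min), from 772 to 607. The Atg3 call was also lost in DESeq2 (-0.37, adjusted p = 0.060), with a linear time term (-0.27, adjusted p = 0.085) and with square-root time (-0.29, adjusted p = 0.099). With TMM scaling and all libraries, Atg5, Atg10 and Atg4b were called in neither material at either time.

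The 5 ATG8-family genes code for the small proteins that coat the autophagosome. At 16 h, 3 of them rose in input and 4 in footprints, against 28.3% and 26% of all tested genes. None fell, against 27% and 24.6% of all tested genes. Gabarapl1 input was 75.4, 83.1, 95.6, 94.0, 92.9, 142 and 132 up to 90 min and 184 at 16 h, and its footprints were 216, 189, 202, 185, 206, 209 and 291 and then 360. Its input was above the untreated value at every time, and its footprints only at 90 min and 16 h. Gabarapl1 input rose by 0.83 ± 0.19 within 90 min (edgeR adjusted p = 0.011; 0.052 without 0 min, 0.055 without 75 min and 0.057 in DESeq2) and by 1.34 ± 0.20 at 16 h (adjusted p = 7.2e-05). Its footprints rose at 16 h by 0.73 ± 0.16 (adjusted p = 0.00099). Their early change of 0.34 ± 0.14 (adjusted p = 0.024) rested on the 90 min library, with a value of -0.14 (adjusted p = 0.71) without it, and was -0.36 (adjusted p = 0.041) with scaling by total counts. That early call was also lost in DESeq2 (0.35, adjusted p = 0.13), with a linear time term (0.35, adjusted p = 0.21) and with square-root time (0.24, adjusted p = 0.52). The same held without 15 or 45 min (0.32 and 0.33).

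Gabarap, which also acts in receptor trafficking, had 712, 646, 592, 639, 659, 652 and 610 normalised input counts up to 90 min and 924 at 16 h, with 2415, 1998, 2179, 1814, 2114, 2066 and 2166 and then 3316 in footprints. In each material 16 h was the highest library, and it rose there by 0.51 ± 0.10 and 0.50 ± 0.12 (edgeR adjusted p = 0.00076 and 0.0021). Gabarapl2 input was 277, 233, 237, 231, 265, 237, 252 and 253 over the 8 time points, and its footprints were 678, 552, 607, 570, 670, 639, 614 and 704. No change of Gabarapl2 was called with all libraries, and without 0 min its footprints at 16 h were 0.35 higher (adjusted p = 0.031), against 0.15 with it. Map1lc3b, the LC3 form used as an autophagosome marker, had 286, 287, 240, 285, 267, 269, 262 and 299 in input and 531, 514, 548, 533, 484, 506, 481 and 654 in footprints. Its footprint rise at 16 h of 0.31 ± 0.12 (adjusted p = 0.040) was lost without 0, 15, 45 or 75 min (0.29 to 0.31, adjusted p = 0.051 to 0.083). That call was also lost in DESeq2 (0.30, adjusted p = 0.165) and with scaling by total counts (0.21, adjusted p = 0.155). The same held without the count filter (0.28, adjusted p = 0.079), with a linear time term (0.28, adjusted p = 0.051) and with square-root time (0.27, adjusted p = 0.092). Map1lc3a was scarce, with deposited counts of 6, 7, 7, 12, 10, 15, 16 and 27 in input and 20, 12, 21, 22, 11, 19, 16 and 37 in footprints. Within 90 min its input change of 1.61 ± 0.47 was not called (edgeR adjusted p = 0.052). It was called with a linear time term (1.60, adjusted p = 0.020) and with square-root time (1.73, adjusted p = 0.049). Its input rose at 16 h by 2.36 ± 0.48 (adjusted p = 0.00087), a ratio of 4.76 with a counting interval of 1.92 to 14.1. Its footprints rose by 1.15 ± 0.44 (adjusted p = 0.038), a call lost without 15, 45 or 75 min (0.93 to 1.13, adjusted p = 0.051 to 0.094). DESeq2 (1.15, adjusted p = 0.22), scaling by total counts (1.05, adjusted p = 0.056) and square-root time (1.12, adjusted p = 0.064) also ended that call.

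Reads of 2 ATG8 genes cannot be assigned with certainty. None of the 29-base stretches of the Map1lc3b coding sequence (0%) and 1.84% of those of Gabarapl2 were unique among annotated transcripts. No other gene shared more of them than the gene models Gm6055 for Map1lc3b and Gm3724 for Gabarapl2. The share of unique stretches was 42.0% for Wdr45, 69.4% for Rb1cc1, 70.4% for Atg9a and 90.0% for Atg4b. It was 91.0% for Vmp1, 99.4% for Gabarap and 100% for the other members. On the same strand, the gene model Gm20388 overlaps Map1lc3b, and Gm45208 overlaps Wdr45. The handling of reads with several matches is not given in the sources at hand.

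The cargo receptors held the member with the largest change in each material and period. Sqstm1 (chr11:50199366-50210827, minus strand, GENCODE M21 on GRCm38) codes for p62, which binds ubiquitin-tagged cargo. Its input stood at 1043, 1078, 1645, 2996, 3798, 4610 and 5214 normalised counts up to 90 min and at 15260 at 16 h. Its footprints stood at 1139, 1139, 1372, 2979, 4316, 5441 and 6078 and then at 16900. At 15 min both materials were at the untreated level, at 30 min input had gained more than footprints, and from 45 min on both stood far above it. At 90 min input was 5.00-fold (4.69 to 5.33) and footprints 5.34-fold (5.01 to 5.69) the untreated value, and at 16 h the folds were 14.6 (13.8 to 15.5) and 14.8 (14.0 to 15.8). The rise within 90 min was 2.61 ± 0.26 in input (edgeR adjusted p = 0.0043) and 2.84 ± 0.38 in footprints (adjusted p = 0.020). The footprint call was lost without 15 min (2.71, adjusted p = 0.062), without 75 min (2.78, adjusted p = 0.069) and with square-root time (2.69, adjusted p = 0.053), while the size hardly moved. At 16 h the rise of Sqstm1 in input was 4.17 ± 0.29 (adjusted p = 0.00016), and that in footprints was 4.14 ± 0.42 (adjusted p = 0.0015). The fitted sizes of Sqstm1 start from the fitted 0 min value. They equal 6.10-fold in input and 7.17-fold in footprints within 90 min, and 17.9-fold and 17.6-fold at 16 h. Each lies above the counting interval of the measured fold.

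Nbr1, a receptor related to p62, fell in input within 90 min and was above the untreated value at 16 h. Its input was 425, 372, 399, 390, 340, 296 and 268 normalised counts up to 90 min and 527 at 16 h. Its footprints were 253, 276, 347, 324, 233, 214 and 193 and then 316. The footprints were highest at 30 min, an early maximum that input did not have, and both materials were lowest at 90 min. Input fell by 0.64 ± 0.11 within 90 min (edgeR adjusted p = 0.0014) and rose at 16 h by 0.45 ± 0.12 (adjusted p = 0.0049; 0.19 with the square root of time). Footprints were not called at 16 h (0.30 ± 0.18, adjusted p = 0.18). They were called within 90 min (-0.55 ± 0.16 at 90 min, adjusted p = 0.0071), and because they went up and then down, the largest excursion turned to 0.37 (adjusted p = 0.019) without 90 min and to 0.43 (adjusted p = 0.0034) with a cubic curve. The early footprint call of Nbr1 was lost with a linear time term (-0.54, adjusted p = 0.17) and with square-root time (-0.36, adjusted p = 0.51). Tax1bp1, a receptor that also restrains inflammatory signalling, rose in input by 0.37 ± 0.08 within 90 min (adjusted p = 0.0065; 0.28, adjusted p = 0.064, without 0 min) and by 0.51 ± 0.09 at 16 h (adjusted p = 0.00026). Tax1bp1 input ranged from 1151 to 1530 and was lowest in untreated cells, while its footprints, from 1337 to 1638, were called in neither period. Calcoco1, a receptor of the endoplasmic reticulum and Golgi, had 38.4 to 56.3 normalised input counts up to 90 min and 92.0 at 16 h. It rose at 16 h by 1.13 ± 0.27 in input (adjusted p = 0.0025) and by 0.96 ± 0.21 in footprints (adjusted p = 0.0012).

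Both late tethers rose at 16 h in both materials, against 28.3% of all tested genes in input and 26% in footprints. Tecpr1, which binds the ATG12-ATG5 conjugate, had 73.6, 78.6, 72.4, 77.4, 55.9, 55.1 and 56.2 normalised input counts up to 90 min and 193 at 16 h, with 37.3, 34.6, 27.9, 28.2, 35.0, 28.6 and 23.8 and then 89.9 in footprints. The 16 h library was above each earlier one in both materials. Tecpr1 rose by 1.42 ± 0.20 in input (edgeR adjusted p = 2.9e-05) and 1.32 ± 0.28 in footprints (adjusted p = 0.00095). Epg5, a tether on late endosomes and lysosomes, had 422, 464, 481, 431, 389, 383 and 393 in input and 670 at 16 h, with 164, 226, 214, 205, 195, 137 and 147 and then 288 in footprints. Epg5 rose at 16 h by 0.68 ± 0.12 in input (adjusted p = 0.00033) and by 0.69 ± 0.19 in footprints (adjusted p = 0.0068; 0.34, adjusted p = 0.13, without 0 min). The footprint rise of Epg5 was also not called with a linear time term (0.44, adjusted p = 0.13) or with square-root time (0.49, adjusted p = 0.20). Its footprints were also called within 90 min (-0.46 ± 0.18, adjusted p = 0.033). That call was lost without 15, 45, 60 or 75 min (-0.31 to -0.47, adjusted p = 0.056 to 0.082), and the excursion turned to 0.39 (adjusted p = 0.026) without 90 min and to 0.46 (adjusted p = 0.015) with a cubic curve. The early call was also lost in DESeq2 (-0.45, adjusted p = 0.12), with a linear time term (-0.45, adjusted p = 0.21) and with square-root time (-0.26, adjusted p = 0.61).

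Ribosome density, footprints divided by input of the same lysate, was tested as an interaction of material with time over all 16 libraries. Over 0 to 90 min it fell for 1 of 35 members and rose for 0, against 0.136% and 1.14% of all tested genes, and 3 members had an unadjusted p under 0.05. The members' median largest change was -0.13, against -0.05 for all tested genes. At 16 h it was called for 0 members, also in DESeq2, against 0.504% of all tested genes in either direction, and 2 members had an unadjusted p under 0.05. The medians at 16 h were 0.07 for both the members and all tested genes.

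The member whose density changed was Vmp1. Its footprints stood at 730, 733, 617, 662, 689, 726 and 771 normalised counts up to 90 min and at 1310 at 16 h, against the rising input given above. The ratio was 1.28 (95% counting interval 1.15 to 1.42) at 0 min and 1.21 (1.09 to 1.34) at 15 min, and then 0.832 (0.747 to 0.926), 0.730 (0.659 to 0.808), 0.759 (0.685 to 0.841), 0.668 (0.605 to 0.737) and 0.758 (0.686 to 0.837) from 30 to 90 min. The intervals of the first 2 libraries did not overlap those of the 5 from 30 to 90 min, and at 16 h the ratio was 1.03 (0.955 to 1.12). Density fell by 0.95 ± 0.14 with its largest departure at 75 min (edgeR adjusted p = 0.00089). Without the 0 min pair, and so measured from 15 min, the change was -0.73 (adjusted p = 0.13), and no other left-out time point ended the call. Footprints alone were not called over 0 to 90 min (-0.18 ± 0.10 at 45 min, adjusted p = 0.18) and rose at 16 h by 0.83 ± 0.11 (adjusted p = 1.2e-05).

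Vmp1 (chr11:86583865-86683836, minus strand, GENCODE M21 on GRCm38) contains on its own strand the microRNA gene Mir21a (chr11:86584067-86584158), near its 3′ end. Input reads from a primary microRNA transcript that overlaps Vmp1 would bear the Vmp1 sequence. Mir21a has no row in the table, the sources at hand do not give the features over which reads were counted, and the part of such reads in the Vmp1 input was not tested.

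No change in ratio was called for the other members. The Sqstm1 ratio was 1.09, 1.06, 0.834, 0.994, 1.14, 1.18, 1.17 and 1.11 over the 8 time points, lowest at 30 min, where its counting interval (0.776 to 0.896) did not overlap that at 0 min (1.01 to 1.19), and the fitted change of 0.23 ± 0.14 was not called (edgeR adjusted p = 0.62). The Atg13 ratio lay between 1.16 and 1.53. The widest fitted change belonged to Map1lc3a (-1.50 ± 0.63, adjusted p = 0.62), whose ratio of 3.65 at 0 min had a counting interval of 1.41 to 11.1.

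The level of ribosome density differed widely among the members. Of 35 members, 17 were higher than the median tested gene and 13 lower, against 42.5% and 42.4% of all tested genes, so the shares called are near the background. All 5 ATG8 genes were on the higher side, between 0.85 and 1.70 on the log2 scale, and 6 of 8 conjugation genes were too. In the ULK1 complex 3 of 5 were lower, among the membrane genes 3 of 6, and both late tethers were lower. The middle 50% of all tested genes spanned -0.66 to 0.52. This level is a ratio within each gene and says nothing of how abundant a gene is.

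The highest level was that of Gabarap (1.70 ± 0.04, edgeR adjusted p = 4.2e-19), with ratios of 2.84 to 3.69 in the 8 pairs of libraries. Gabarapl2 followed (1.32 ± 0.05, adjusted p = 9.7e-17; ratios of 2.37 to 2.78), then Atg12 (1.11 ± 0.11, adjusted p = 2e-09; ratios of 1.63 to 3.17). Gabarap and Gabarapl2 did not overlap over the 8 pairs, while Atg12 overlapped both. Gabarapl1 (1.04), Map1lc3b (0.93) and Map1lc3a (0.85) came next.

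The lowest level was that of Ulk2 (-3.70 ± 0.11, adjusted p = 3.5e-18), the second ULK kinase. Its input of 230 to 268 normalised counts was matched by footprints of 19.6, 24.4, 16.1, 18.4, 20.3, 9.16, 23.8 and 26.4, so the ratio was 0.0348 to 0.104. Ulk1, its relative, stood at -0.99 ± 0.11. Becn1 (-1.77 ± 0.06, adjusted p = 8.4e-18) had 659 to 862 normalised input counts but 193 to 281 in footprints, and its ratio of 0.260 to 0.359 lay apart from those of the other core members of its complex, Pik3c3 (1.16 to 1.38) and Pik3r4 (0.841 to 1.09). Atg4d (-1.54 ± 0.09, adjusted p = 2.4e-13) had ratios of 0.224 to 0.430, against 0.995 to 1.46 for its relative Atg4b. Ulk2 lay below every other member in all 8 pairs, whereas Becn1 and Atg4d overlapped.

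Coding length went along with this level. The ATG8 coding sequences are 354 to 378 nucleotides long and that of Epg5 is 7719. Over the 35 members Spearman's rho between coding length and density level was -0.74, and over the 9135 tested genes with a coding transcript it was -0.50. These are descriptions over genes that share the same 16 libraries. The coding share of the transcript had a rho of -0.42 over members and -0.20 over all. Whether input reads were counted over whole transcripts is not known, and the effect of such counting on the level was not tested. An ATG upstream of the coding start was annotated in 21 of 35 tested members' principal transcripts, against 49.1% of all tested genes. Members with one had a median level of -0.03 and those without 0.19, and for all tested genes the medians were -0.28 and 0.21. Ulk2 has 4 such ATGs and Becn1 has 1, but Gabarap, with the highest level, has 8.

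**Figure D3:**
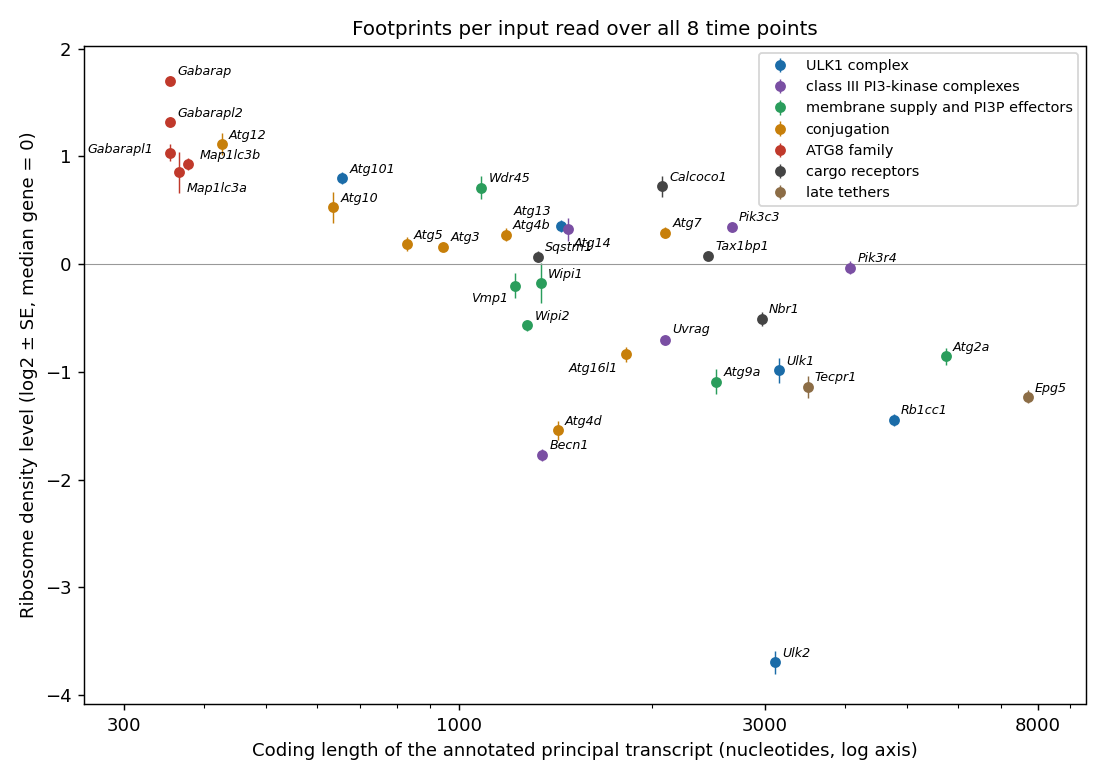
Ribosome density level (y axis, log2 ± SE, with the median tested gene at 0) against coding length (x axis, nucleotides, log scale) for the 35 tested members, coloured by role. The ATG8 genes sit at the top left, the long genes Epg5, Atg2a and Rb1cc1 lie below 0, and Ulk2 lies lowest at -3.70.

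Per kilobase of coding sequence, Gabarap was the member with most footprints in untreated cells, at 6823 normalised counts per kilobase. Gabarapl2 had 1915, Map1lc3b 1404, Sqstm1 857 and Atg3 817. At 16 h Sqstm1 had 12720 per kilobase, above Gabarap with 9366. Among the lowest in untreated cells were Ulk2 with 6.30, Wipi1 with 8.05, Ulk1 with 9.02 and Tecpr1 with 10.7.

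A wider list of 61 symbols of further pathway genes (of which Retreg1 and Fam134b name one gene), from its upstream kinases to the fusion machinery, was counted in the same way, and 55 of them were tested. In input 8 rose and 7 fell within 90 min, against 15.2% and 11.9% of all tested genes, and 18 rose and 8 fell at 16 h, against 28.3% and 27% (median 0.19). In footprints 4 rose and 8 fell within 90 min, against 12.7% and 9.13%, and 13 rose and 3 fell at 16 h, against 26% and 24.6% (median 0.12). No density change was called in either period. The largest rise in footprints belonged to Sesn2, an inhibitor of mTORC1 signalling, with 2.17 ± 0.20 within 90 min and 2.67 ± 0.22 at 16 h, and it also led in input at 16 h (2.05 ± 0.16). In input within 90 min Prkab2, a subunit of the energy sensor AMPK, rose most (2.87 ± 0.46). Plekhm1, an adaptor of lysosome fusion, fell most within 90 min, by 1.11 ± 0.24 in input and by 1.54 ± 0.14 in footprints. At 16 h the largest falls were those of Atg9b in input (-1.50 ± 0.28) and Prkag2, another AMPK subunit, in footprints (-1.23 ± 0.25). In density level 22 genes of this list were higher and 27 lower, against 42.5% and 42.4% of all tested genes, from Wdfy3 (-2.05 ± 0.06), a large scaffold of selective autophagy, to Rab7 (2.02 ± 0.05), the GTPase of late endosomes.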

How the data were processed

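Whole-number read counts, which the authors deposited for each gene, were tested; the deposited normalised signal equals them after division by 1 size factor per library and was used only to check that. Bowtie 0.12.8, DESeq2 1.18.1 and mm10 are those that the submitters' processing notes name. The counting of reads, its features and strand were not given in the sources at hand. Deposited totals are equal across libraries, so depth before deposit is unknown and counting intervals cover counting error only.

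After TMM scaling, robust quasi-likelihood F-tests were run in edgeR 4.0.16 (R 4.3.3), and p-values of the 9529 tested genes were adjusted together by Benjamini-Hochberg. Terms were a quadratic in minutes and a 16 h term per material; density used a time-point block and material interactions, and density level a material term. The p-values measure scatter about a curve, not replicate cultures. Ratios carry exact 95% Clopper-Pearson intervals (scipy). Fits were also run on simulated counts with known footprint changes, unchanged input and the same spread for every gene. That setting is simpler than these data, where input also moved, and no result here rests on it. Alternatives were DESeq2 1.42.0, other scalings, no count filter, other time terms, no block and leaving out each time point. Members and lists were chosen with earlier results of these data known. Named genes were those of each role, every density call, and the 3 largest called changes per direction and comparison; of the wider list, the largest per direction. Protein sequences were not used here.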

Additional observations from a re-analysis of the deposited data

Results flagged for a closer look

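Vmp1 was marked because its change over 0 to 90 min differed between the 2 materials by a test of the difference itself. The largest fitted change was 0.94 ± 0.095 at 90 min in input and -0.18 ± 0.10 at 45 min in footprints. The interaction of material with time was -0.95 ± 0.14 at 75 min (edgeR quasi-likelihood test, adjusted p = 0.00089). These sizes stand at different minutes, and at 90 min the measured footprints were 1.06-fold the untreated value (0.949 to 1.18). Without the 0 min pair the interaction was -0.73 (adjusted p = 0.13).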

How the results depend on the processing

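The count of called members stayed within 1.5 times its value under every alternative run for input at both periods (6 to 12 calls within 90 min, against 9, and 17 to 22 at 16 h, against 21), for footprints at 16 h (14 to 18, against 18), for density at 16 h (0) and for density level (29 to 32, against 30). For footprints within 90 min it did not: 6 members were called, against 17 with scaling by total counts (3 up, 14 down), 0 with the square root of time, 3 with a linear term and 3 to 8 when 1 time point was left out. The density change within 90 min was called for 0 to 1 members when 1 time point was left out. The footprint changes of 3 members called within 90 min turned direction, and Uvrag, not called at 0.22, was called at -0.27 with scaling by total counts (adjusted p = 0.037). Epg5 was 0.46 with a cubic curve and ranged from -0.75 to 0.39 with 1 time point left out. Nbr1 was 0.43 with a cubic curve and ranged from -0.78 to 0.37. Gabarapl1 was -0.36 with scaling by total counts and ranged from -0.14 to 0.46. The cause of these shifts was not tested. Replicates could not be paired, since each group holds 1 library. The density fits paired input and footprints of a time point through a block, and without that block Atg13's level of 0.38 was not called (adjusted p = 0.32). Depth limits Map1lc3a, Wipi1 and the Ulk2 footprints most.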
